A study of Mus musculus with 4 samples.

Results

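The cytosolic ribosomal protein genes were measured by single-cell RNA sequencing of ascites from mice bearing ovarian tumor cells. Members were taken by gene symbol (Rpl or Rps followed by a number, Rplp0 to Rplp2 and Rpsa, leaving out the Rps6k kinases), which gave 84 of the 29835 genes listed in the 4 libraries. Of these, 52 encode proteins of the large ribosomal subunit and 32 proteins of the small subunit. The control library listed 82 members, the BTYNB library 84, and the anti-PD-1 and combination libraries 83 each.

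All mice were C57BL/6 animals engrafted intraperitoneally for 7 days with ID8-Trp53 knockout cells (Trp53-/-), a mouse ovarian line without the p53 tumor suppressor. They then received 2 doses a week up to an ascites volume of roughly 3 mL. Control mice were given DMSO and an IgG control antibody. The BTYNB group received BTYNB, an inhibitor of the RNA-binding protein Igf2bp1, and the IgG control antibody. The anti-PD-1 group received DMSO and a PD1 blocking antibody, and the combination group received BTYNB and the PD1 blocking antibody. The labels give 50 mg/kg for BTYNB and 100 ng per dose for each antibody, and the study's methods state other amounts. Cells of the animals of a group were pooled into 1 library, so no spread between animals could be measured and no difference below was tested. Intervals are 95% intervals that cover counting error only, and a difference outside them is a difference between libraries or between cells of 1 library.

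Every ribosome carries a large and a small subunit, and each subunit is built from ribosomal RNA and a fixed set of small, mostly basic proteins. Ribosomal protein mRNAs are among the most abundant in a cell, and nearly all begin at the cap with a C followed by a run of pyrimidines, the 5' terminal oligopyrimidine (TOP) motif, through which mTOR and Larp1 control their translation. A few members have paralogues that can replace them in the ribosome, and free Rpl5 and Rpl11 bind Mdm2, the ubiquitin ligase of p53.

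Promoter letters were read from RefSeq (build GRCm38.p6), which held 64 of the 84 members. A run of at least 5 pyrimidines that began with C within 5 bases of an annotated start stood in 29 of the 64 (45.3%), against 5718 of all 27025 genes of the table (21.2%). Over genes with 1 annotated start, the shares were 23 of 54 members (42.6%) and 18.3% of all genes. The counts depend on where RefSeq places the start, and a member without the run in this window cannot be said to lack the motif. The sequences below run from 14 bases before the start to 16 bases from it on, 5' to 3' on the strand of the gene, with the run in capitals. The run was read from its first C within the window, whatever base came before. Pyrimidines therefore also precede the capitals in Rpl35, Rps24, Rpl38 and Rpl22l1. They are shown for some of the members whose level differed most between cell classes or libraries and for the pairs of Rps27 and Rps27l and of Rpl22 and Rpl22l1. Where a gene had 2 annotated starts, the first of the table is given.
Rps27, chr3:90213633-90213662, minus strand: tttccgctttcgCTCCTTTCCggcggtgac
Rps27l, chr9:66946072-66946101, plus strand: cactcctccccgccgCCTCTatcccggaag
Rpl22, chr4:152325712-152325741, plus strand: tcgccctgggaaaagcaatagctggccgat
Rpl22l1, chr3:28805494-28805523, plus strand: tgcggcgcaagcccgttCTCTTCCCacggc
Rps24, chr14:24490664-24490693, plus strand: ccgcgctggggtCCTTCCTTgcgcgttgat
Rps4x, chrX:102189376-102189405, minus strand: tgaggctgggcggagcaacccaggctccag
Rpl13a, chr7:45128730-45128759, minus strand: aaaccctgcgacaagaCCTCCTCCTTTCCC
Rpl10, chrX:74270802-74270831, plus strand: ttgttacagtggaagataggccgcctatat
Rps10, chr17:27635229-27635258, minus strand: cgccgcgcacgCCCCTTCCTTTCCagcctc
Rpl35, chr2:39005116-39005145, minus strand: ggccccgccCTTTCCTCTTTCTCTCgaacc
Rpl38, chr11:114668566-114668595, plus strand: gcggaagcctcgttCTTTCCCCgttctctt
In Rps27 the run was 9 bases long and began 2 bases before the annotated start, and in Rps27l it was 5 bases long. Rpl10, Rps4x and Rpl22 held no such run in this window.

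There were 7858 cells in control, 19247 in BTYNB, 12163 under anti-PD-1 and 7074 under the combination, with 78603888 to 114600397 unique molecular identifiers (UMIs, each 1 captured mRNA molecule) per library. Cells with at least 200 genes and at most 33% of UMIs from mitochondrial genes were gated by UMIs as tumor cells (at least 5 of Krt7, Krt8, Krt18, Krt19 and Wt1, and none of Ptprc), myeloid cells (at least 3 of Lyz2 and Csf1r and at most 2 of the keratins), T cells (at least 2 of Cd3d, Cd3e and Cd3g) and B cells (at least 3 of Cd79a and Cd79b). The smallest deposited cell held 4438 UMIs in control, 869 in BTYNB, 3533 under anti-PD-1 and 5115 under the combination. Cells under 3533 UMIs were thus seen in the BTYNB library alone. Tumor-gated cells summed to 2595 to 3267 UMIs per 1000000 (CPM) of 8 tumor markers and 27.65 to 78.31 CPM of 7 myeloid markers. Myeloid-gated cells summed to 9007 to 16570 CPM of myeloid markers and 112.2 to 374.2 CPM of tumor markers. Both lists include genes of the gates, so this contrast was largely set by the gating. Outside the gate genes, Upk3b had 455.1 to 641 CPM in tumor-gated and 13.28 to 69.05 in myeloid-gated cells, and Msln was also higher in tumor-gated cells. Epcam stood at 0.08 to 0.23 CPM in tumor-gated cells and at 12.16 in T-gated cells of BTYNB. Itgam, a myeloid marker outside the gate, had 813.2 to 1387 CPM in myeloid-gated and 1.84 to 4.93 in tumor-gated cells. Lymphocyte gates were less clean, as described with their values. Libraries shared 0 to 4 cell labels per pair. T-gated cells numbered 22 in control and 30 in anti-PD-1, and B-gated cells 31 and 39, which was too few for a level.

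The share of the transcriptome taken by ribosomal protein genes differed more between tumor and myeloid cells than between libraries within either class. The share of UMIs from members in tumor-gated cells was 9.93% in control (7114 cells), 9.62% in BTYNB (3606 cells), 10.15% under anti-PD-1 (10923 cells) and 10.46% under the combination (4369 cells). In myeloid-gated cells it was lower in all 4 libraries, with 7.10% in control, 7.50% in BTYNB, 6.77% under anti-PD-1 and 7.30% under the combination. T-gated cells of the BTYNB library held the highest share, 13.29% (2481 cells), and B-gated cells of that library held 10.64% (3475 cells). In the combination library T-gated cells held 10.56% (158 cells) and B-gated cells 11.04% (286 cells), near its tumor-gated cells. The differences from tumor-gated cells in BTYNB were 3.67 percentage points for T cells and 1.02 for B cells. For myeloid cells they were -2.11 to -3.38 over the 4 libraries. Single cells spread far wider than the libraries did. The quartiles over tumor-gated cells were 7.79% and 11.2% in control, and those over T-gated cells of BTYNB 9.85% and 18.7%.

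**Figure D1:**
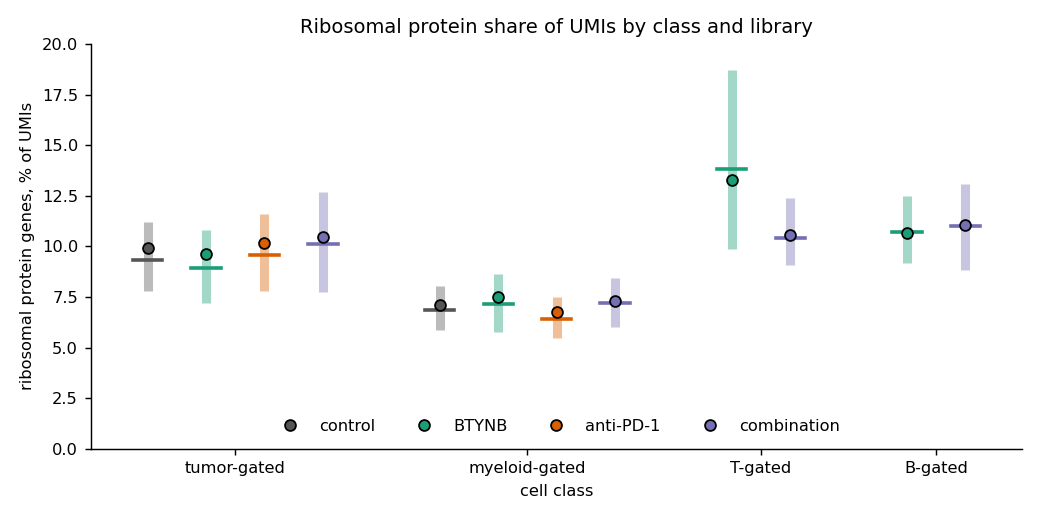
Share of UMIs from ribosomal protein genes (vertical axis, percent) by cell class and library; circles are shares of summed UMIs, lines are medians over cells and shaded bars span the quartiles over cells. The 4 myeloid values sit between 6.77% and 7.50%, below every tumor value (9.62% to 10.46%). T-gated cells of BTYNB stand highest at 13.29%, and those of combination lie at 10.56%.

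In tumor-gated cells the members as a group differed little between treatments. Their median log2 ratio was -0.06 for BTYNB over control, beside 0.00 for all 13176 genes tested, and 10 of the 81 members tested were at least 1.2-fold higher and 14 at least 1.2-fold lower. Among all genes, 17.9% were higher and 16.3% lower by that much. For anti-PD-1 over control the median was -0.03 (all genes -0.06), with 13 members higher and 13 lower, against 15.4% and 21.8% of all genes. This comparison and the one before share the control library. For combination over anti-PD-1 the median was 0.03 (all genes 0.05), with 8 members higher and 7 lower, against 21.9% and 15.1% of all genes. For combination over BTYNB the median was 0.10 (all genes -0.01). Of the 81 members, 65 lay above 0, 5 were at least 1.2-fold higher and 0 were at least 1.2-fold lower, against 5.94% and 3.89% of all genes. With ratios scaled by the median of ratios over all genes, the medians for anti-PD-1 over control and combination over anti-PD-1 changed sign, to 0.04 and -0.04. The share varied with depth within 3 of the 4 libraries, from 8.46% in the quartile of control tumor cells with the fewest UMIs to 10.85% in the quartile with the most, from 8.40% to 10.35% in BTYNB and from 8.48% to 11.03% in anti-PD-1. In combination it lay between 10.14% and 10.56% in all 4 quartiles. Median depth of tumor-gated cells was 9783 UMIs in control, 15221 in BTYNB, 7160 under anti-PD-1 and 11503 under the combination, and the part of depth in the differences between libraries was not tested.

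Single members differed further than the group did, and the largest ratios were those to the control library. Rpl10, which is added last to the large subunit, stood at 225.6 CPM in tumor-gated cells of control, 125.6 in BTYNB, 134.2 under anti-PD-1 and 121.2 under the combination. Control was far above the other 3, which lay close together. The log2 ratio to control was -0.84 (interval -0.89 to -0.81) under BTYNB and -0.74 (-0.78 to -0.71) under anti-PD-1. Rps19, the gene most often mutated in Diamond-Blackfan anemia, had 996.3 CPM in control and 666.9, 695.9 and 702.2 CPM in the same order. It too was highest in control, with log2 ratios of -0.58 under BTYNB and -0.52 under anti-PD-1.

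Rps10, Rps29 and Rpl24 went the other way. Rps10, counted at low levels, had 13.02 CPM in control, 21.84 in BTYNB, 26.32 under anti-PD-1 and 26.80 under the combination, and its log2 ratio to control was 0.70 (0.62 to 0.87) in BTYNB and 0.96 (0.91 to 1.13) in anti-PD-1. Its interval is that of the ratio without the added pseudocount of 1 CPM. Rps29 had 907.5 CPM in control, 1313 in BTYNB, 1466 under anti-PD-1 and 1419 under the combination. Rpl24, a protein at the bridge between the subunits, had 40.30, 62.65, 55.27 and 52.66 CPM. In all 3 genes control was the lowest library.

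Counted over all members, control lay at least 1.2-fold outside the range of the other 3 libraries for 13 of 81 members in tumor-gated cells (8 above, 5 below), against 10.7% of all genes. BTYNB did so for 0 members (2.60% of all genes), anti-PD-1 for 2 (14.6%) and combination for 1 (2.05%). In myeloid-gated cells the numbers were 8 for control (16.1% of all genes), 2 for BTYNB (23.0%), 6 for anti-PD-1 (22.7%) and 0 for combination (3.82%). Rpl10, Rpl29, Rpl7l1 and Rps19 were above and Rpl27a, Rps10 and Rps29 below in control in both classes, and Rpl14 and Rpl35 were below in anti-PD-1 in both. How many of all genes did so in both classes was not counted, so this overlap was not read as a result about the members. In myeloid-gated cells Rpl10 had 356.8 CPM in control against 203.1 to 244.7 in the other libraries, and Rps29 had 1334 CPM against 1861 to 2169. A member whose level differs alike in 2 cell classes of 1 library cannot be told apart from a trait of that library. Rpl10 kept its ratios when UMIs of its listed pseudogene copy were added, at -0.85 and -0.75, and that copy held 3.72% to 4.45% of the sum.

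**Figure D2:**
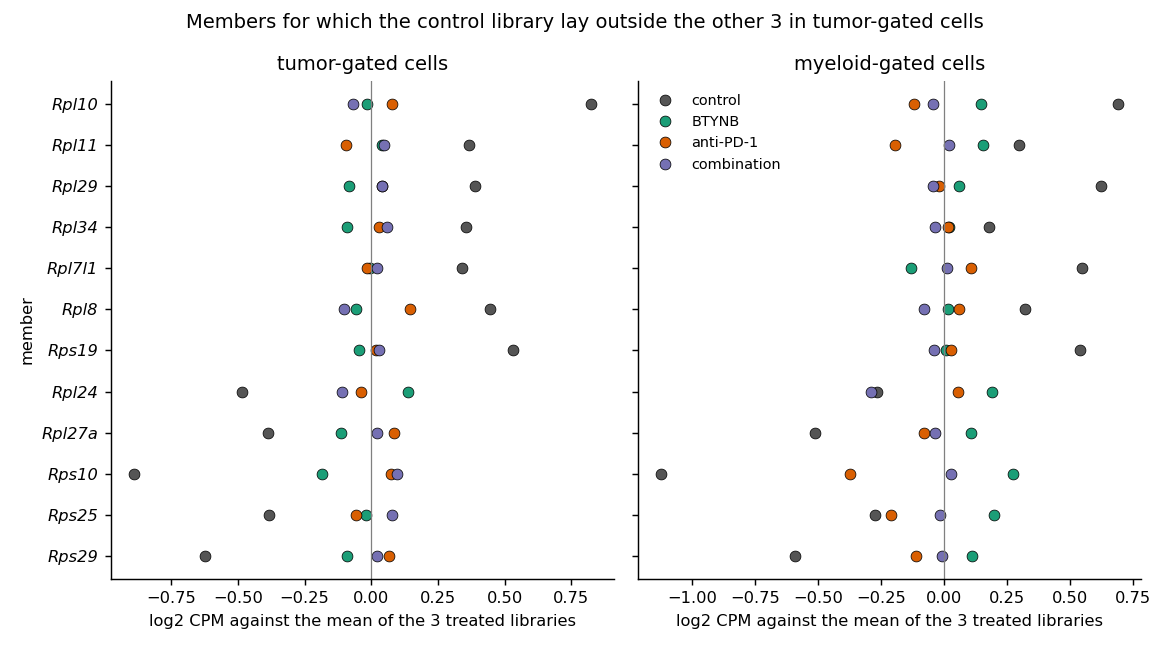
Log2 CPM of each library against the mean of the 3 treated libraries (horizontal axis) for 12 of the 13 members for which control lay at least 1.2-fold outside the others in tumor-gated cells, in tumor-gated (left) and myeloid-gated cells (right). Gray control points stand apart from the other 3 for every member drawn in tumor-gated cells, and for 7 of them by that fold in myeloid-gated cells too. Among all genes, control lay that far outside for 10.7% in tumor-gated and 16.1% in myeloid-gated cells. The share of all genes in both classes was not counted.

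Differences among the 3 treated libraries were smaller. Rpl35, which sits near the exit of the peptide tunnel, had 980.3 CPM in tumor-gated cells of anti-PD-1 and 1392 in combination, beside 1348 in control and 1299 in BTYNB, so that anti-PD-1 was the low library. Rpl14 showed the same order, with 683.0 CPM under anti-PD-1, below the 844.4 to 909.9 CPM of the other libraries. Rpl38, a member tied in mice to the translation of Hox mRNAs, was highest in combination, with 2228 CPM against 1649 in control, 1781 in BTYNB and 1694 in anti-PD-1. Its log2 ratio was 0.40 (0.38 to 0.41) to anti-PD-1 and 0.32 (0.31 to 0.34) to BTYNB. Rpl37 was higher in the libraries with the antibody, with 3886 CPM under anti-PD-1 and 3998 under the combination against 3331 in control and 2985 in BTYNB, and Rps16 had 2311 and 2301 CPM against 2119 and 1865. Rps15a and Rps14 split the libraries by BTYNB instead. Rps15a had 692.4 CPM with BTYNB and 708.0 with both agents, against 945.0 in control and 942.7 in anti-PD-1. Rps14, a gene lost in the 5q- syndrome of the marrow, had 797.6 and 804.8 CPM against 1014 and 1001. Myeloid-gated cells gave for Rps14 923.8 CPM with BTYNB and 774.1 with both agents, against 1050 in control and 868.6 in anti-PD-1, and for Rps15a 516.5 and 457.3 against 564.1 and 537.3. For Rpl38 they gave 1181 and 1175 CPM against 1016 and 941.7 in the same order, and for Rps16 1445 and 1474 against 1251 and 1321. Both were thus higher there in the libraries with BTYNB. Rpl37 was again higher with the antibody, at 1558 CPM in anti-PD-1 and 1536 in combination against 1405 in control and 1288 in BTYNB. Among the low ratios of combination to BTYNB were those of Rpl24 at -0.25 and of Rpl3, which reaches toward the peptidyl transferase center, at -0.14 (554.8 against 613.4 CPM).

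The functional groups were read by their summed levels. The acidic stalk proteins Rplp0, Rplp1 and Rplp2, which recruit the elongation factors, summed to 5366 CPM in control, 5374 in BTYNB, 6084 under anti-PD-1 and 5728 under the combination in tumor-gated cells, between 5.41% and 5.99% of member UMIs. Rpl5 and Rpl11, which carry the 5S ribosomal RNA, summed to 2237, 2072, 2109 and 2048 CPM. Within the pair, Rpl11 was at 613.8 CPM in control and 445.8 to 492.2 CPM elsewhere, while Rpl5 stayed between 1555 and 1663 CPM. Rps27a, made as a fusion with ubiquitin, had 1452, 1542, 1751 and 1727 CPM, and anti-PD-1 stood 0.27 (0.26 to 0.28) above control on the log2 scale. In T-gated cells of BTYNB the stalk summed to 7152 CPM and the 5S pair to 3612 CPM. The medians of large and small subunit members were -0.07 and -0.05 for BTYNB over control, -0.08 and 0.08 for anti-PD-1 over control, 0.04 and 0.01 for combination over anti-PD-1, and 0.10 and 0.11 for combination over BTYNB. For T-gated over tumor-gated cells of BTYNB they were 0.41 and 0.62. The large subunit took 53.43% of member UMIs in tumor-gated cells of control and 52.84% in BTYNB.

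Other genes of the translation machinery were read from lists. The 77 mitochondrial ribosomal protein genes tested had medians of -0.16 for BTYNB over control and -0.17 for anti-PD-1 over control, with 21 and 27 at least 1.2-fold lower and 2 and 4 higher. Among all genes 16.3% and 21.8% were lower and 17.9% and 15.4% higher by that much. Their medians were 0.11 for combination over anti-PD-1 and 0.07 for combination over BTYNB. The 35 genes of ribosome biogenesis had medians of -0.04, -0.16, 0.11 and -0.04 in the 4 comparisons, and the 18 genes of the mTOR and TOP group 0.01, -0.13, 0.07 and -0.04. The 19 translation factors and other TOP transcripts had -0.07, -0.06, -0.17 and -0.05. Of these 19, 6, 8, 5 and 8 lay above 0 in the 4 comparisons. For BTYNB over control 1 was at least 1.2-fold higher and 4 lower, and for anti-PD-1 over control 2 and 1, beside the shares of all genes given above. Tpt1, a TOP transcript, was among the genes higher than control. It had 3042 CPM in control, 3902 in BTYNB, 4432 under anti-PD-1 and 3743 under the combination. Rack1, a ribosomal protein that the symbol rule leaves out, was highest in control (1020 CPM, against 780.7, 838.1 and 749.3).

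Members differed between cell classes, and not by the same factor for all. In the BTYNB library the median member was 0.43 higher in T-gated than in tumor-gated cells on the log2 scale (all 12681 genes -0.19). Of 81 members, 53 were at least 1.2-fold higher and 5 lower, against 33.3% and 47.5% of all genes. B-gated cells had a median of 0.10 (all genes -0.13), with 24 higher and 7 lower, against 32.1% and 43.1%. Myeloid-gated cells had a median of -0.35 (all genes -0.37), with 5 higher and 48 lower, against 29.6% and 54.2% of all genes. The medians of myeloid over tumor cells were -0.43 in control (all genes -0.37), -0.56 with the antibody alone (all genes -0.36) and -0.47 with both agents (all genes -0.36). In the combination library T-gated cells had a median of 0.02 (all genes -0.12), with 44 of 81 members above 0, and B-gated cells one of 0.10 (all genes -0.08), with 55 above 0. In both, summed tumor markers exceeded those of the gated class, as given below.

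The members that led in T cells were Rpl17, Rps4x, Rps14, Rps24 and Rps27. Rpl17, which lines the peptide exit tunnel, had 2835 CPM in T-gated, 1917 in B-gated, 1368 in myeloid-gated and 992.8 in tumor-gated cells, and the log2 ratio of T to tumor cells was 1.51 (1.49 to 1.54). It was the highest ratio in T and B cells among members with at least 1000 UMIs. Rps4x, encoded on the X chromosome, had 2524 CPM in T-gated, 1793 in B-gated, 1376 in myeloid-gated and 1116 in tumor-gated cells. Rps24, another Diamond-Blackfan anemia gene, had 4099 CPM in T-gated, 3063 in B-gated and 2008 in tumor-gated cells, and Rps14 had 1672 in T-gated against 797.6 in tumor-gated cells. Rpl17 and Rps4x fell in the same order of classes, from T cells over B and myeloid cells to tumor cells.

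In the BTYNB library 11 of 81 members lay below 0 in T-gated and 23 in B-gated cells against tumor-gated cells. The medians of all genes were -0.19 and -0.13, so most genes lay below 0 in both. Rps27l had 87.88 CPM in T-gated and 119.9 in B-gated against 204.9 in tumor-gated cells, with log2 ratios of -1.21 (-1.34 to -1.11) and -0.77 (-0.85 to -0.70). Rpl7l1, a relative of Rpl7 that acts in building the large subunit, had 43.42 CPM in T-gated against 76.94 in tumor-gated cells (-0.81). Rpl37 had 2173 and 2308 CPM in T- and B-gated cells against 2985, and Rps2, at the mRNA entry of the small subunit, 929.5 and 885.2 against 1139. Rpl13a, which also has a role outside the ribosome in the interferon response of myeloid cells, was lower in every immune class, at 142.5 CPM in T-gated, 129.5 in B-gated and 66.63 in myeloid-gated against 172.1 in tumor-gated cells. In B cells at or above 5115 UMIs its log2 ratio was 0.02.

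Myeloid cells had an order of their own. Rpl10 had the highest ratio to tumor cells (244.7 CPM in myeloid-gated against 125.6 in tumor-gated cells, a log2 ratio of 0.96, interval 0.91 to 1.02), followed by Rps29 (2169 against 1313 CPM, 0.72). Rpl17, Rps4x and Rps9 followed at 0.46, 0.30 and 0.26. The lowest were Rpl13a at -1.36, Rps21 at -1.24 (590.5 against 1399 CPM), Rpl37 at -1.21 (1288 against 2985 CPM), and Rps28 and Rpl30 at -1.08 each. Rpl30 binds RNA of its own gene in yeast to limit its production. In B cells Rpl10 was also among the 5 highest, at 0.58, and Rps10 among the 5 lowest, at -0.31 (17.39 against 21.84 CPM).

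**Figure D3:**
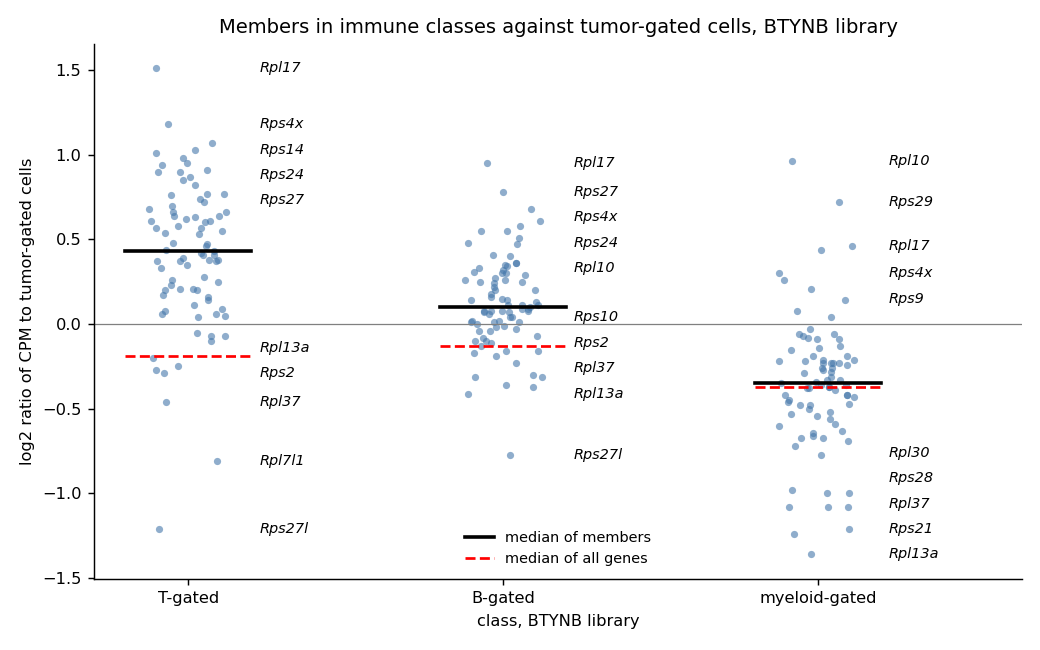
Log2 ratio of CPM in T-, B- and myeloid-gated cells to tumor-gated cells of the BTYNB library (vertical axis) for each member tested (points, spread sideways for clarity); black lines are the medians of members (0.43, 0.10 and -0.35) and red dashed lines those of all genes. Names mark the 5 highest and 5 lowest members, moved vertically where they would overlap.

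The lymphocyte values depended on which cells passed the gate. T-gated cells of BTYNB that met no other gate and had under 5115 UMIs (2142 cells) held a share of 14.76% and 258.1 CPM of the keratins and Wt1 summed. The 160 such cells with more UMIs held 10.83% and 1139 CPM. For B-gated cells the shares were 11.07% (2983 cells, 272.2 CPM) and 9.89% (158 cells, 1614 CPM). In the combination library all T-gated cells had at least 5115 UMIs. The 95 that met no other gate held 10.49%, with 1179 CPM of the keratins and Wt1, and the T- and B-gated cells of that library as a whole held 10.56% and 11.04%. The 8 tumor markers summed to 1443 CPM in those T-gated cells and 7 T-cell markers to 1238, against 703.1 and 2736 CPM in BTYNB. In B-gated cells of combination they summed to 2175 CPM and 6 B-cell markers to 1914, against 1556 and 4381 CPM in BTYNB. Several gates were met by 163 of the 286 B-gated and 63 of the 158 T-gated cells of combination. The T-gated cells of the 2 libraries thus differed in their markers and depth, and the median ratio of combination to BTYNB (-0.33, with 73 of 80 members below 0) was not read as a treatment difference. Among cells of 2000 to 5000 UMIs with 1 gate met, T-gated cells of BTYNB held 14.76%, B-gated cells 11.15%, tumor-gated cells 8.45% and myeloid-gated cells 7.04%, the same order as over all cells. Depth still differed within these limits, with medians of 2588 UMIs in T-gated, 2451 in B-gated, 3130 in tumor-gated and 3495 in myeloid-gated cells.

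In lymphocytes under 5115 UMIs with 1 gate met, the members' median log2 ratio to tumor-gated cells was 0.59 for T cells (71 of 81 above 0) and 0.12 for B cells (52 of 81). The medians of all genes were -0.29 and -0.27, so most genes lay below 0 in both. The tumor-gated cells also met 1 gate but were taken at any depth, so depth differed between the sides. Rpl17 was at 1.78 and 1.41 and Rps4x at 1.42 and 1.06 in T and B cells, and Rps27 at 1.32 in T cells. Rps27l was the lowest member in both, at -2.25 and -2.45.

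The pair Rps27 and Rps27l gave the widest contrast between classes. Rps27l, a paralogue of Rps27 known as a target of p53, made up 22.95% of the UMIs of the pair in tumor-gated cells of control, 18.06% in BTYNB, 20.52% under anti-PD-1 and 18.46% under the combination, in a line without p53. In myeloid-gated cells it was higher, at 31.38%, 20.86%, 28.23% and 24.67% in the same order. In T- and B-gated cells of BTYNB it was 4.49% (4.16% to 4.84%) and 7.00% (6.67% to 7.34%). In the lymphocytes of that library with 1 gate met and under 5115 UMIs, Rps27l fell to 1.80% (196 UMIs of Rps27l beside 10667 of Rps27) in T cells and 1.64% in B cells, and in those with more UMIs it was 13.9% (12.5% to 15.5%) and 13.0% (11.8% to 14.3%). The higher values thus came with 1139 and 1614 CPM of keratins and Wt1. What part RNA of other cells had in them was not tested. T- and B-gated cells of combination, all at or above 5115 UMIs, had 13.47% and 14.67%.

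**Figure D4:**
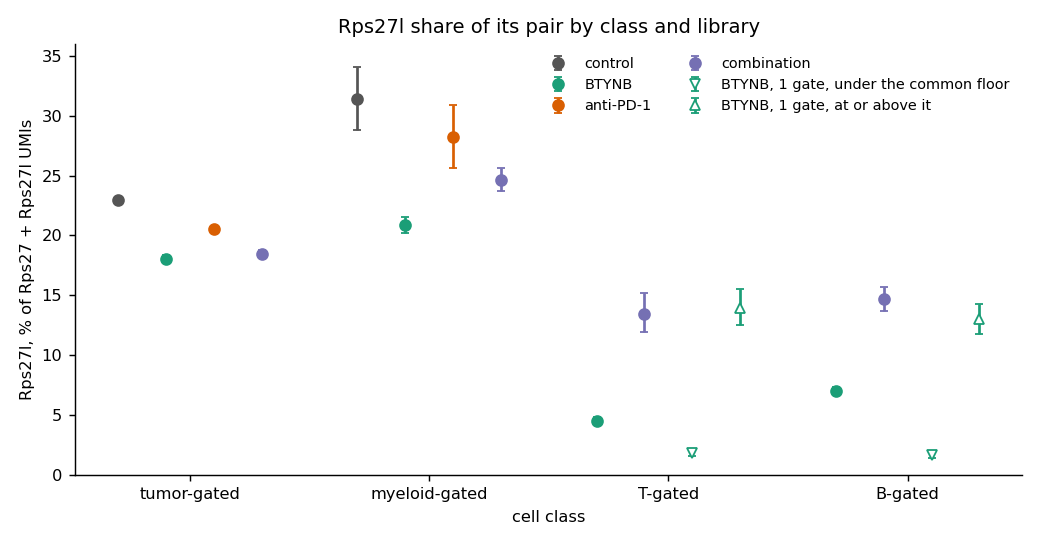
Rps27l as a percent of the UMIs of Rps27 and Rps27l (vertical axis) by cell class and library, with exact binomial intervals; open triangles are T- and B-gated cells of BTYNB that met 1 gate, under (pointing down) and at or above (pointing up) 5115 UMIs. Tumor values run from 18.06% to 22.95%, and lymphocytes under 5115 UMIs stand at 1.80% and 1.64%.

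Of the other pairs, Rpl22l1, a paralogue of Rpl22 whose expression Rpl22 is known to repress, made up 20.49% to 22.01% of its pair in tumor-gated cells of the 4 libraries. In myeloid-gated cells it took 34.31% in control, 20.06% in BTYNB, 32.74% under anti-PD-1 and 26.69% under the combination, lower in both libraries with BTYNB. In lymphocytes of BTYNB with 1 gate met and under 5115 UMIs it was 25.7% in T and 26.6% in B cells. Rpl7l1 made up 7.11% of its pair in tumor-gated cells of control, 5.58% to 5.93% in the other libraries, and 2.11% in T and 3.97% in B cells under 5115 UMIs. Rpl36al, an intronless copy of Rpl36a, stayed between 1.08% and 1.90% of its pair in tumor-gated cells. The remaining paralogues were almost silent. Rpl39l had 5, 66, 5 and 24 UMIs in control, BTYNB, anti-PD-1 and combination, and made up at most 0.00485% of its pair in tumor-gated cells. Rpl3l, a muscle form of Rpl3, had 25 UMIs in myeloid-gated cells of BTYNB and 0 to 3 in tumor-gated cells of each library. Rpl10l, a testis form of Rpl10, had 1 UMI in all, and Rps4l was not listed. Rpl39l, Rpl3l and Rpl10l were the 3 members with under 100 UMIs in every class and library, and are not among the 81 members tested. Levels of members with near-identical copies elsewhere in the genome are uncertain, since shared reads could be split or dropped in counting.

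Within T cells of the BTYNB library the share differed between Cd8 and Cd4 cells. T-gated cells of BTYNB with 1 gate met held 16.02% (1117 cells) when they carried a Cd8a or Cd8b1 UMI and none of Cd4, and 10.09% (377 cells) when they carried Cd4 and neither Cd8 gene, with median depths of 2254 and 1983 UMIs. Of the 79 members tested, 77 were higher in the Cd8 cells, with a median log2 ratio of 0.64. The median of all 4975 genes was -0.11, so most genes lay below 0. Rpl36a led at 0.97, followed by Rpl13 at 0.88 and Rps20 at 0.86. Rpl13a (-0.12, interval -0.39 to 0.16) and Rpl7l1 (-0.19, -0.70 to 0.32) were the 2 members below 0, with intervals that span it. The Cd4 cells carried Foxp3 at 244.3 CPM against 4.04 in the Cd8 cells, Ctla4 at 853.6 against 155.7 and Icos at 509.1 against 72.1, genes of regulatory and activated T cells. The Cd8 cells carried Ly6c2 at 827.9 against 26.58 CPM and Ccl5 at 3240 against 728.9. The genes Lyz2 (18.65 and 19.42 CPM) and Csf1r (3.11 and 3.07 CPM) were alike in both. These genes were picked after their values were seen.

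Among effector-like cells (at least 2 UMIs of Gzma, Gzmb, Gzmk, Ifng, Nkg7 and Ccl5) the share was 15.74% in Cd8 and 9.19% in Cd4 cells. In each quartile of T cells by UMI total the Cd8 cells were higher, by 6.73, 7.58, 8.63 and 4.38 percentage points from the lowest quartile to the highest. With cells that met several gates included, Cd8 cells of BTYNB at or above 5115 UMIs held 11.46% (115 cells). Those of combination held 10.55% (91 cells). Cd4 cells numbered 42 and 19 there, too few for a level, so the difference was seen in BTYNB alone.

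Tumor-gated cells with at least 3 UMIs of the cell cycle genes Mki67, Top2a, Ube2c, Birc5 and Cdk1 held more than those with 0 in all 4 libraries, at 10.63% against 8.91% in control, 10.43% against 8.77% in BTYNB, 10.82% against 9.22% in anti-PD-1 and 11.43% against 9.21% in combination. Cells with cycling UMIs were deeper (a median of 11754 against 8194 UMIs in control), and within quartiles of the UMI total the difference was 0.92 to 1.28 percentage points in control, BTYNB and anti-PD-1 and 0.95 to 2.93 in combination. From 75 to 79 of the 81 members lay above 0, with medians of 0.23 to 0.33. The medians of all genes were -0.14 to -0.11, so most genes lay below 0 in each library. Rpl13a was the highest member in all 4 libraries, at 0.59 to 0.65. Rpl22l1 was the lowest in all 4, at -0.69 (128.7 against 207.8 CPM) in control, -0.66 in BTYNB, -0.55 under anti-PD-1 and -0.60 under the combination, while most other members were higher.

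**Figure D5:**
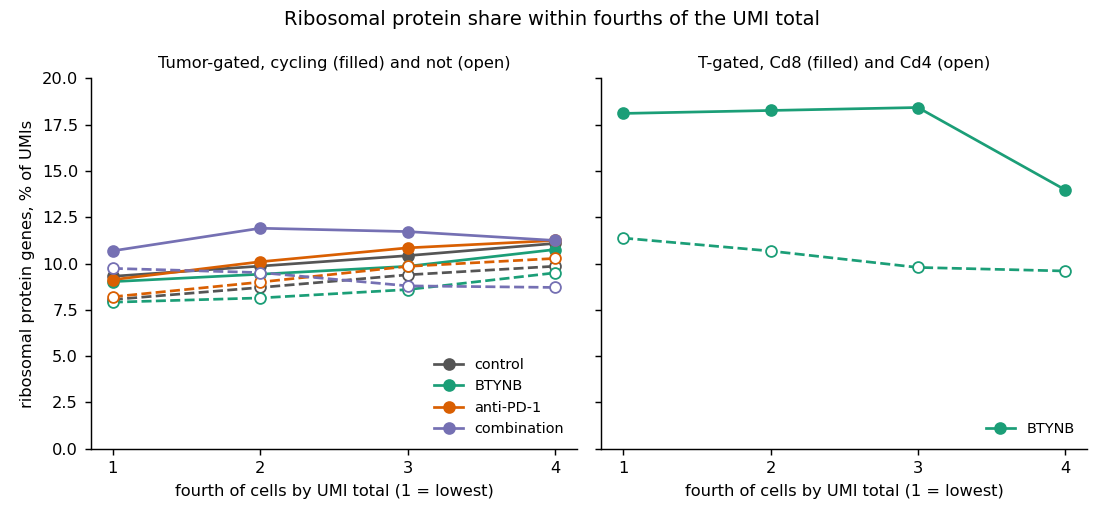
Share of UMIs from ribosomal protein genes (vertical axis, percent) within quartiles of cells by UMI total (horizontal axis), for tumor-gated cells with at least 3 (filled) and 0 (open) cell cycle UMIs by library (left) and for Cd8 (filled) and Cd4 (open) T-gated cells of BTYNB (right), cells meeting 1 gate. Filled points lie above open points of the same library in every quartile.

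In the anti-PD-1 library 2024 tumor-gated cells had at least 3 UMIs of Cd24a, a surface antigen used to mark stem-like tumor cells, and held 11.99%, against 9.28% in the 7076 cells with 0. The other libraries had 148 to 298 such cells, at 10.64% in control, 10.81% with BTYNB and 11.88% with both agents, beside 9.76%, 9.38% and 10.14%. In anti-PD-1, Rps12, Rpl13a, Rplp1 and Rplp0 differed most (log2 ratios of 0.87, 0.83, 0.83 and 0.77). Median depth was 9324 UMIs in Cd24a cells and 6430 in cells with 0. At or above 5115 UMIs the shares were 11.98% (1948 cells) and 9.53% (5230 cells). The part of depth in the difference was not tested.

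Myeloid cells varied within a narrower range. Cells with at least 5 UMIs of C1qa, C1qb and C1qc, genes of resident macrophages, held 6.88% in control, 7.10% in BTYNB, 6.67% under anti-PD-1 and 7.03% under the combination. Cells with at least 3 UMIs of Ly6c2, a gene of monocytes, held 7.63% in BTYNB and 8.13% in combination, and cells with at least 2 of Cd209a, a gene of monocyte-derived dendritic cells, 8.72% and 8.13%. Cells with at least 3 UMIs of Retnla held 7.58% in control, 7.23% in BTYNB and 6.90% in combination. Neutrophil markers summed to 1813 CPM in myeloid-gated cells of BTYNB and to 12.49 to 389.4 CPM in the other libraries, and their part in the myeloid values was not tested.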

How the data were processed

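Cells of malignant ascites were captured on the BD Rhapsody platform. The authors counted UMIs with the vendor's pipeline on build GRCm39, per the submitters' processing notes, and deposited raw counts per gene and cell, 1 matrix per library. The study's methods also remove doublets, and no list of the cells removed was used here. The deposited counts were kept as whole numbers, summed over gated cells, divided by all UMIs of those cells (CPM), and compared as log2 ratios with a pseudocount of 1 CPM over genes that reached 100 UMIs in 1 or more of the libraries compared. Ratios of at least 1.2-fold were counted by direction. A class needed 50 cells in a library. Shares have exact (Clopper-Pearson) 95% binomial intervals, and CPM ratios intervals from the exact binomial share of 2 counts. PCR duplicates were collapsed by UMI, so these intervals cover counting error only. No test was possible with 1 library per group, and no p-value is given.

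Doublets were not removed again. Scrublet (in scanpy 1.11.5) marked 0.0128% to 2.61% of cells by its own threshold, too few in control and anti-PD-1 for a working call, so removing the 5% highest scores was tried as an alternative. Other alternatives were cells that met 1 gate, a common floor of 5115 UMIs, CPM without mitochondrial UMIs, medians over cells, other scalings, pseudocounts and floors. A cell could meet several gates (0.449% to 3.11% of cells kept). The ratio calculation was tested on simulated data with known folds. The members named are, for each treatment comparison, the 3 highest and 3 lowest with at least 1000 UMIs, for each class comparison in BTYNB the 5 highest and 5 lowest, the paralogue pairs, the functional groups and members under 100 UMIs. The members, lists and rules were chosen with earlier results of these data known. Python 3.11.15, numpy 2.4.6 and scipy were used. Promoter coordinates are those of the RefSeq table (GRCm38.p6), not of the build used for counting. Some members that these rules select, and 1 grouping of T cells, are not reported here.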

Additional observations from a re-analysis of the deposited data

Results flagged for a closer look

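In tumor-gated cells the median log2 ratio of the members had opposite signs without and with the second agent when scaled to all UMIs. BTYNB against its partner library without BTYNB gave -0.06 without the antibody and 0.03 with it, and the antibody gave -0.03 without BTYNB and 0.10 with it. The difference was not tested, and each library is 1 pool. With median-of-ratios scaling neither agent's medians differed in sign, at -0.07 and -0.04 for BTYNB and 0.04 and 0.11 for the antibody. Over the alternatives, the median for BTYNB over control ran from -0.10 to -0.04, and that for combination over BTYNB from 0.09 to 0.18. The other medians spanned 0, at -0.03 to 0.04 for anti-PD-1 over control and -0.04 to 0.05 for combination over anti-PD-1. In myeloid-gated cells the medians kept their sign, at 0.08 and 0.10 for BTYNB and -0.09 and -0.07 for the antibody.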

How the results depend on the processing

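No paired analysis was possible because each group has 1 library, and no replicate could be left out. The share of member UMIs in tumor-gated cells kept its order of libraries under each alternative that gave all 4 values. With 1 gate met it was 9.554% in BTYNB and 10.43% in combination. Without the 5% highest doublet scores it was 9.887% in control, 10.13% under anti-PD-1 and 10.44% under the combination. At or above 5115 UMIs it was 9.962% in control, 9.67% in BTYNB and 10.39% in anti-PD-1. Without mitochondrial UMIs it was 11.19%, 10.98%, 11.54% and 11.84% in control, BTYNB, anti-PD-1 and combination, and as the median over cells 9.342%, 8.941%, 9.594% and 10.1%.

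The excess of T over tumor cells in BTYNB (3.67 percentage points) was 4.13 with 1 gate, 3.95 without high doublet scores, 1.06 at the common floor, 3.81 without mitochondrial UMIs, 4.91 as medians and 6.31 at 2000 to 5000 UMIs. That of B cells (1.02) was 1.19, 0.99, 0.51, 0.84, 1.78 and 2.71 in the same order. Myeloid minus tumor in control, BTYNB, anti-PD-1 and combination was -3.54, -2.86, -4.20 and -3.98 without mitochondrial UMIs and -2.47, -1.78, -3.19 and -2.90 as medians. In BTYNB, anti-PD-1 and combination it was -2.24, -3.48 and -3.27 with 1 gate and -2.24, -3.46 and -3.18 without high doublet scores, and in BTYNB and anti-PD-1 -1.93 and -2.73 at the common floor.

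Member medians changed for anti-PD-1 over control and combination over anti-PD-1 with median-of-ratios scaling (0.04 and -0.04), and for combination over BTYNB as a mean over cells (0.18). Median-of-ratios scaling gave 21 members higher and 9 lower for anti-PD-1 over control. Means over cells gave 8 higher and 22 lower for BTYNB over control, and 14 and 0 for combination over BTYNB. Rps27l in T cells of BTYNB was 3.78% of its pair with 1 gate, 4.08% without high doublet scores and 13.7% at the common floor. Rpl13a in B against tumor cells was 0.02 at the common floor (-0.41 over all cells), where 12 of 29 class ratios fell under 1.2-fold. The 21 treatment ratios past 1.2-fold kept their sign and side in all 10 settings. Settings that changed only the floor could not alter a single ratio, and summed pseudogene copies could alter only members with listed copies. The window of 2000 to 5000 UMIs, the split by depth, the summed pseudogene copies and the lymphocytes split by depth were chosen after seeing the data, and the cause of these changes was not tested.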
